A study of Mus musculus with 4 samples.

Results

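The 40 genes described here encode the contractile apparatus of skeletal muscle and the proteins that switch it on. They comprised 8 genes of the thick filament, 5 myosin light chains, 2 actins, 7 troponins, 3 tropomyosins, 8 genes of the Z disc and the giant scaffold proteins, 2 calcium channels, 2 subunits of the acetylcholine receptor, 2 membrane fusion genes and the muscle creatine kinase gene. They were chosen by name as a module from 21581 protein-coding genes, and no measured value enters the rule. Each was described by the peak intervals of H3K27ac, a histone acetylation found at active promoters and enhancers, within 50 kb of its transcription start sites.

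H3K27ac had been profiled by ChIP-seq in E14.5 mouse fetuses with the genotype Col2a1-EGFP on the G4 background, in which a fluorescent sensor at the Col2a1 cartilage collagen gene marks chondrocytes. The fetuses had been grown from 1 homozygous sensor clone of embryonic stem cells by tetraploid aggregation, and cells of several fetuses had been pooled. The 4 populations were separated by flow cytometry and were the EGFP+ chondrocytes and the EGFP− remainder of the limbs, and the EGFP+ chondrocytes and the EGFP− remainder of the trunk with its inner organs removed. There was 1 library per population, so that no test between populations could be made, and the limb libraries ran on another sequencing lane than the trunk libraries, so that lane and tissue cannot be told apart. Peaks of the trunk EGFP− library are named as replicate 2 in the deposited list, but GEO labels the library replicate 1, and it is treated as such here. Muscle has no sorted fraction of its own in this design. Muscle cells without sensor signal fall into the EGFP− fractions together with every other cell type that is not cartilage. In such mixed fractions, fewer cells of a type and less acetylation per cell cannot be told apart.

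A sarcomere is built from thick filaments of myosin that pull on thin filaments of actin, and the thin filaments are anchored in Z discs. Calcium released from the sarcoplasmic reticulum binds the troponin complex, which shifts tropomyosin along the actin filament and frees the sites for myosin. Fetal muscle forms by the fusion of myoblasts into multinucleated fibres, in which the embryonic and perinatal myosins precede the adult isoforms, and its fibres carry the fetal acetylcholine receptor at the nerve contact.

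Sequences of selected promoters and distal regions are given here. The promoter stretches were placed by the canonical start site, not by the peaks. The first pair is the stretch from 200 to 1 bp upstream of the canonical start site of Ryr1, the calcium release channel, and of Tnnt1, the slow troponin T, since these were the members whose promoters held a peak in the EGFP− but not the EGFP+ list of both tissues. Capitals mark the E-box CANNTG, the letters bound by myogenic factors of the MyoD family, the MCAT element CATTCC, and the MEF2 box, all on either strand. The Ryr1 stretch, which holds none of these letters, lies at chr7:28824577-28824776 and the Tnnt1 stretch at chr7:4519004-4519203 of GRCm39, both on the minus strand.
Ryr1: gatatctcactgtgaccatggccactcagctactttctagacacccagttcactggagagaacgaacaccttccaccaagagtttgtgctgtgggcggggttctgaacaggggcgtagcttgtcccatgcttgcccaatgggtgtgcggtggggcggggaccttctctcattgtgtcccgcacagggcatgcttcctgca
Tnnt1: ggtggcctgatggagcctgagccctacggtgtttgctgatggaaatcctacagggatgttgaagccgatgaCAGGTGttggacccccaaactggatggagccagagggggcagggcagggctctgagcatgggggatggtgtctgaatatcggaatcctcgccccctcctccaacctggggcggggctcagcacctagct

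A further set of 3 promoters was chosen after their values were seen, for contrast. Chrng, the fetal receptor subunit, held a peak in limb EGFP− cells alone and has 3 E-boxes, which start 114, 91 and 34 bp upstream of the canonical start. Klhl41, a sarcomere-stabilising protein, and Ckm, muscle creatine kinase, held no promoter peak in any list, although the Klhl41 stretch carries 3 E-boxes and a MEF2 box and the Ckm stretch 1 E-box. The stretches lie at chr1:87133292-87133491, chr2:69500264-69500463 and chr7:19144633-19144832, in this order, all on the plus strand.
Chrng: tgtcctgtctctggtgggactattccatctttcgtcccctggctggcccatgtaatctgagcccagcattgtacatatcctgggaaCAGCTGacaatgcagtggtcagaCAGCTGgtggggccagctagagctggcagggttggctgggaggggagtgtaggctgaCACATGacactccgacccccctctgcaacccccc
Klhl41: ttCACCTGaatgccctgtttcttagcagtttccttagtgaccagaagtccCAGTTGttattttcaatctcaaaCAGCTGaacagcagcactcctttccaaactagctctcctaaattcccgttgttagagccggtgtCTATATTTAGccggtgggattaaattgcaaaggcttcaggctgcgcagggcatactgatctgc
Ckm: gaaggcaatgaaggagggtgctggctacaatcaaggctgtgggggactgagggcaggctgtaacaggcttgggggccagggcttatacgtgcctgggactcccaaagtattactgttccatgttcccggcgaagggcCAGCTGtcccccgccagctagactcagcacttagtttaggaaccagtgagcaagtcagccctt

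The last set is 200 bp around the stronger EGFP− summit of the 3 distal regions with the highest summed −log10 p among those that held EGFP− peaks of both tissues and no EGFP+ peak. They lie 34.6 kb upstream of Klhl41 at chr2:69465759-69465958, 7.04 kb inside Chrna1 at chr2:73403697-73403896 and 21.7 kb downstream of the Tnnt3 start site at chr7:142077001-142077200, and are given on the plus strand.
Klhl41 distal: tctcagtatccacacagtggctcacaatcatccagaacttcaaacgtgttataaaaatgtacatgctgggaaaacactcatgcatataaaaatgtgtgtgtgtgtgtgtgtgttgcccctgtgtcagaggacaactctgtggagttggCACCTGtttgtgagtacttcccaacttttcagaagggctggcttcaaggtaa
Chrna1 distal: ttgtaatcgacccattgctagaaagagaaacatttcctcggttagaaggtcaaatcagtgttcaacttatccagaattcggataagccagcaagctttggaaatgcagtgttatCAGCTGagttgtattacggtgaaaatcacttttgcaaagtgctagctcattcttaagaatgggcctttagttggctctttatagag
Tnnt3 distal: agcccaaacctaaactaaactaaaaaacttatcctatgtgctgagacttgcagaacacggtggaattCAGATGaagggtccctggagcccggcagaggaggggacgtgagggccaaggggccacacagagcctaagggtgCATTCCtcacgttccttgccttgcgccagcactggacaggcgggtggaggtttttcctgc

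Most of the module was unmarked at its promoters in every population, the muscle-containing EGFP− fractions included. A promoter peak is an interval that overlaps a window of 2 kb before to 500 bp after any start site of the gene. By this rule 24 of the 40 members, or 60.0% (exact Clopper-Pearson 95% confidence interval 43.3 to 75.1%, counting error only), held no promoter peak in any of the 4 lists, where 41.3% of all protein-coding genes held none. Single lists marked 9 members in limb EGFP+, 13 in limb EGFP−, 10 in trunk EGFP+ and 14 in trunk EGFP− cells, or 22.5, 32.5, 25.0 and 35.0%, against 54.4, 51.6, 52.6 and 52.7% of all genes. The 40 members had 237 start sites and all genes 67388, and shares taken at any start do not allow for the larger number per member. An unmarked promoter is one at which the peak caller accepted no summit, not one shown to lack acetylation, and the weakest accepted summits rested on 7 or 8 reads.

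**Figure D1:**
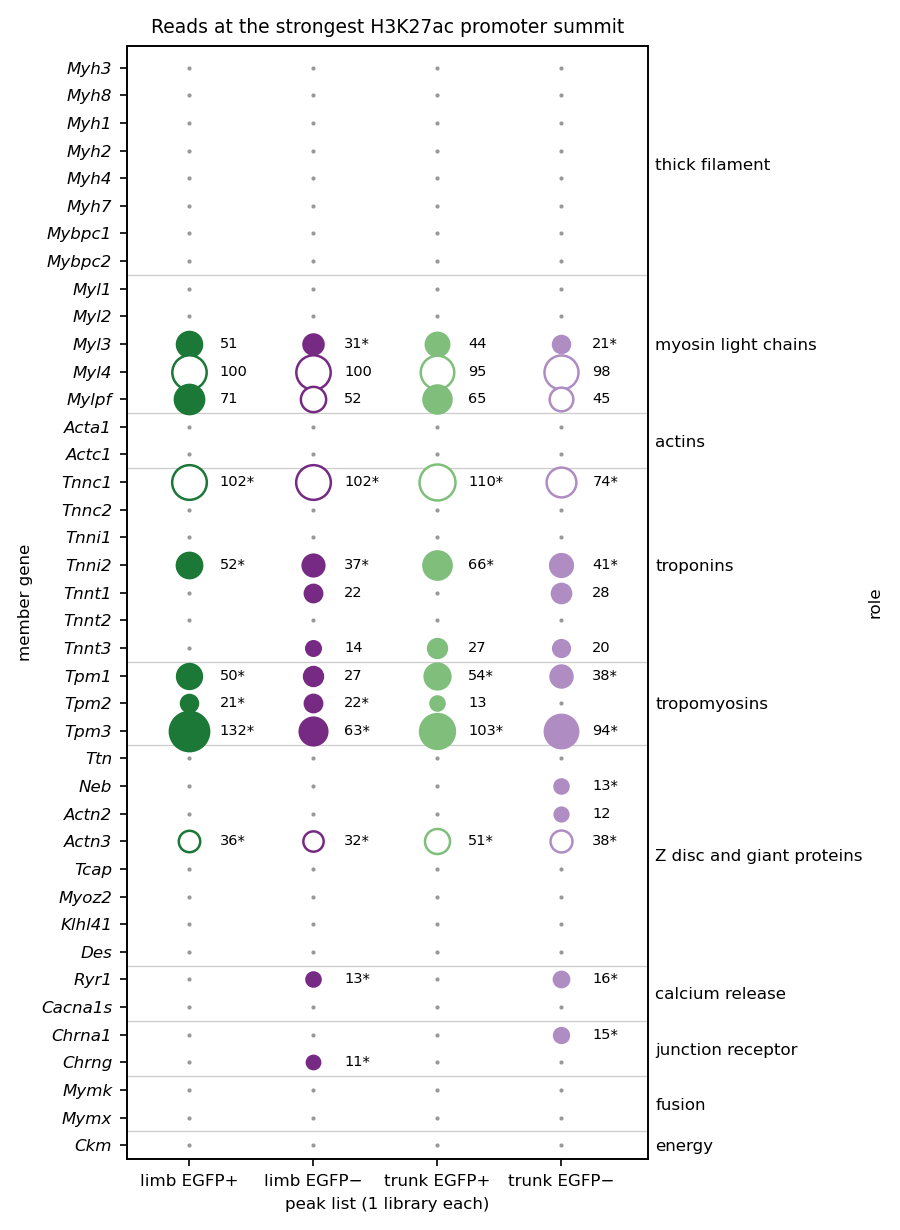
Reads at the strongest H3K27ac promoter summit of each of the 40 members (rows, grouped by role) in the 4 peak lists (columns, 1 library each), with larger circles for more reads and a grey dot for no peak. Open circles mark genes whose promoter intervals in that list all reach the promoter window of another gene as well, and an asterisk marks lists with an interval at the canonical start site. A reader sees empty rows for 24 members, rows filled across all 4 lists for 8, and small circles of 11 to 28 reads in the EGFP− columns alone for genes such as Tnnt1 (22 and 28 reads) and Ryr1 (13 and 16).

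The unmarked members came from 8 of the 10 roles. None of the 8 thick filament genes had a promoter peak, including the embryonic myosin Myh3, the perinatal myosin Myh8, the adult fast myosins Myh1, Myh2 and Myh4, the slow myosin Myh7, and Mybpc1 and Mybpc2, which encode the slow and fast myosin-binding proteins C. The actin genes Acta1 and Actc1 were unmarked as well, as were both genes of myoblast fusion, Mymk and Mymx, and Ckm. Among the scaffold proteins, Ttn, which encodes the giant spring titin, the Z disc genes Tcap and Myoz2, the intermediate filament gene Des and Klhl41 had none. The remaining unmarked members were the light chains Myl1 and Myl2, the troponins Tnnc2, Tnni1 and Tnnt2, and Cacna1s, the voltage sensor of the muscle membrane. No interval of any list, promoter or distal, lay within 50 kb of Myh1, Myh2 or Myh4, which stand side by side on chromosome 11.

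Promoters of the members were poor in CpG. The ratio of observed to expected CpG dinucleotides within 500 bp on each side of the canonical start had a median of 0.226 over the members and 0.577 over all genes, and it was below 0.5 at 33 members (82.5%) against 44.0% of all genes. Judged at the canonical start alone, 29 members (72.5%) held no peak in any list, against 43.9% of all genes. Among the 33 CpG-poor members the share was 81.8% (27 genes), against 80.1% of all 9506 CpG-poor genes. Among the 7 other members, 2 held no peak, namely Des with a ratio of 0.606 and Actn2 with 0.509, which is 28.6% against 15.5% of all such genes. The part of base composition in the missing peaks was not tested.

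The members that were marked only outside the cartilage fraction were few, and the peaks were weak. In the limb, 4 members (10.0%, 2.79 to 23.7%) held a promoter peak in EGFP− but not EGFP+ cells, where 2.02% of all genes did so. In the trunk it was 5 members (12.5%, 4.19 to 26.8%), where 3.31% of all genes did so. In both tissues it was 2 members (5.0%), Tnnt1 and Ryr1, where 0.783% of all genes did so. The opposite pattern, a peak in EGFP+ but not EGFP− cells, was held by 0 members in the limb (upper 95% limit 8.81%) and 1 in the trunk (2.5%), where 4.83% and 3.22% of all genes held it.

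**Figure D2:**
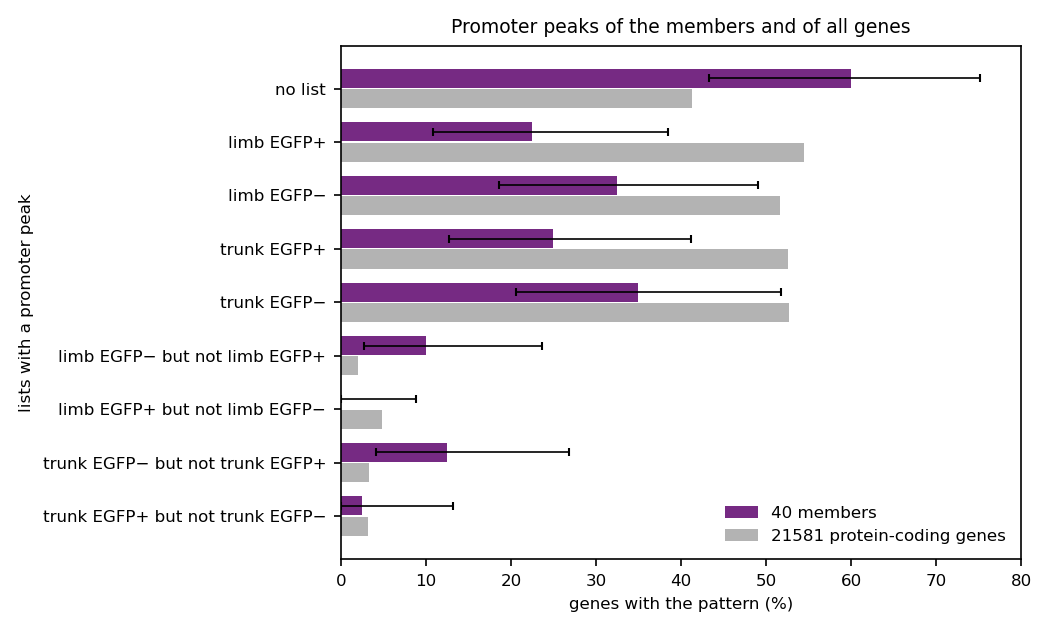
Share of genes (x axis, percent) with each promoter pattern (y axis) among the 40 members (purple, with exact 95% intervals for counting error) and all 21581 protein-coding genes (grey). The purple bar is longer than the grey one for no list (60.0 against 41.3%) and for the EGFP− lists taken against the EGFP+ list of the same tissue (10.0 against 2.02% in the limb, 12.5 against 3.31% in the trunk), and shorter for each single list.

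Ryr1 forms the channel through which calcium leaves the sarcoplasmic reticulum. Its promoter interval in limb EGFP− cells lay at chr7:28823929-28824521 with 13 reads at the summit, 396 bp downstream of the canonical start, and in trunk EGFP− cells at chr7:28823740-28824535 with 16 reads, 263 bp downstream. Neither EGFP+ list held a peak there. The printed Ryr1 stretch, upstream of the start, lay outside both intervals. Tnnt1 ties the troponin complex of slow fibres to tropomyosin, and it was marked at an internal start, with 22 reads at chr7:4517870-4518069 in limb EGFP− cells and 28 reads at chr7:4517942-4518141 in trunk EGFP− cells. These summits lay 1038 and 967 bp downstream of the canonical start, but within 47 and 24 bp of another annotated start. No EGFP+ peak lay there in either tissue. At the canonical window of Tnnt1, which the printed stretch belongs to, no list held a peak.

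The 2 members that encode subunits of the receptor at the nerve contact were each marked in 1 tissue. Chrna1, the subunit that binds acetylcholine, had 15 reads at chr2:73410431-73410630 in trunk EGFP− cells alone. Chrng, the subunit that is replaced after birth, had 11 reads at chr1:87133152-87133380 in limb EGFP− cells alone. Both intervals reached the canonical start window and no promoter window of another gene.

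Among the scaffold genes, Neb, which encodes the thin filament ruler nebulin, had 13 reads at chr2:52225445-52225711, and Actn2, an actin cross-linker of the Z disc, had 12 reads at chr13:12355259-12355492, both in trunk EGFP− cells alone. Tnnt3, the fast troponin T, had 14 reads at chr7:142047004-142047212 in limb EGFP− cells and none in limb EGFP+ cells. In the trunk it had peaks in both fractions, with 27 reads in EGFP+ and 20 in EGFP− cells. Across these 7 members, the EGFP−-only promoter summits had 11 to 28 reads and a −log10 q of 1.89 to 4.68, they ranked 65.4 to 96.7% of the way down their lists by −log10 p, and none passed when a −log10 q of at least 5 was required of every list.

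Peaks in all 4 lists were held by 8 members, against 47.4% of all genes, and for several of them the same interval reached a neighbouring promoter. Myl4, the embryonic and atrial light chain, had 100, 100, 95 and 98 reads in limb EGFP+, limb EGFP−, trunk EGFP+ and trunk EGFP− cells, but all intervals were shared with the window of Cdc27, a gene of the cell cycle, and had summits 27081 to 27200 bp upstream of the canonical start. Tnnc1, the slow and cardiac calcium sensor, had 102, 102, 110 and 74 reads, all shared with Nisch. Actn3, the fast fibre cross-linker of the Z disc, had 36, 32, 51 and 38 reads, all shared with Zdhhc24. At these 3 genes a peak cannot be assigned to the member.

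The other 5 members were marked in all 4 lists with an interval that reached no other promoter window in at least 1 list. Tnni2, the inhibitory subunit of fast fibres, had 52, 37, 66 and 41 reads in the same order of lists, at summits 711 to 858 bp upstream of its canonical start. These values were higher in EGFP+ than in EGFP− cells of both tissues. Mylpf, the fast regulatory light chain, had 71, 52, 65 and 45 reads at starts upstream of the canonical one, all 4 in intervals that reached the window of Tbc1d10b. Its EGFP+ intervals that reached no other window had 40 reads in the limb and 37 in the trunk, and no EGFP− interval overlapped them. Myl3, the slow and ventricular light chain, had 51, 31, 44 and 21 reads, which came from different starts. The limb EGFP+, limb EGFP− and trunk EGFP+ summits lay 12954, 12815 and 12922 bp upstream of the canonical start. The trunk EGFP− summit lay 1202 bp upstream of it, where no EGFP+ list held a peak, so that these 4 values are not comparable.

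Tropomyosins, which cells outside muscle also use in other isoforms, were marked most widely. Tpm3 had 132, 63, 103 and 94 reads and Tpm1 had 50, 27, 54 and 38. Tpm2 had 21, 22 and 13 reads in limb EGFP+, limb EGFP− and trunk EGFP+ cells and no peak in trunk EGFP− cells, which made it the 1 member marked in the EGFP+ alone of a tissue. A count of reads at a summit depends on the depth of its library and its local background, and the EGFP− and EGFP+ counts of a gene are given side by side without a test.

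The choice of start site changed which members were called. At the start of the Ensembl canonical transcript, a choice made after the values were seen, 3 members had a limb EGFP− but no limb EGFP+ peak (Myl3, Ryr1 and Chrng; 1.93% of all genes), and 4 had a trunk EGFP− but no trunk EGFP+ peak (Myl3, Neb, Ryr1 and Chrna1; 3.36% of all genes). Ryr1, Neb, Chrna1 and Chrng were thus called at any start and at the canonical start. Tnnt1, Tnnt3 and Actn2 were called only at other starts. Myl3 was called at the canonical start alone, since its starts further upstream were marked in all 4 lists. Upstream of the canonical start of Myl3, an interval at chr9:110591440-110591651 had 21 reads in limb EGFP− cells and one at chr9:110591295-110591626 had 21 reads in trunk EGFP− cells, with summits 1149 and 1202 bp upstream and no EGFP+ peak in either tissue.

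In the opposite direction, 1 member was called in the limb (4.86% of all genes) and 0 in the trunk (3.18% of all genes) at the canonical start. The limb gene was Tpm1, and its call rested on the edge of the window. The limb EGFP− interval at chr9:66955636-66956427 had 54 reads and lay just beyond the 500 bp limit, whereas the limb EGFP+ interval at chr9:66956088-66956540, with 33 reads, reached into it.

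Where a member had promoter peaks in both EGFP− lists, the summits of trunk and limb were compared. Of 11 such members, 7 had more reads in the trunk (63.6%), where 44.0% of all genes with both peaks did. These were Tnni2, Tnnt1, Tnnt3, Tpm1, Tpm3, Actn3 and Ryr1. The summit reads of Actn3, Myl4, Tnnc1 and Mylpf came from intervals shared with a neighbouring promoter. Of these, Actn3 counted as higher in the trunk and Myl4, Tnnc1 and Mylpf did not. For Tpm1 the direction rested on the edge of the window, since the limb EGFP− interval with 54 reads described above was left out, and at that region the trunk EGFP− summit had 38 reads. Myl3 counted as higher in the limb with 31 against 21 reads at different starts, whereas at its canonical start both EGFP− lists had 21. Ratios were small, with a median of 0.25 on the log2 scale. By the fold over the local background 4 of 11 (36.4%) were higher in the trunk, where 36.3% of all genes with both peaks were, so that by this measure the members stood at the share of all genes.

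Away from promoters, the windows of the members held distal intervals of every list. The 50 kb windows joined into 34 stretches of 4.36 Mb in all, since neighbours such as the Myh cluster, Tnni2 with Tnnt3, and Tnni1 with Tnnt2 share theirs. They held 66 distal intervals of limb EGFP+, 56 of limb EGFP−, 52 of trunk EGFP+ and 44 of trunk EGFP− cells. In limb EGFP− cells 28 of 56 (50.0%, 36.3 to 63.7%) had no overlapping limb EGFP+ interval, where 56.6% of all distal intervals of that list had none. In trunk EGFP− cells it was 25 of 44 (56.8%, 41.0 to 71.7%), where the list as a whole had 57.3%. In the EGFP+ lists it was 39 of 66 (59.1%) for the limb, where the whole list had 68.5%, and 34 of 52 (65.4%) for the trunk, where it had 69.1%. By these shares the windows of the members stood near or below their lists.

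**Figure D3:**
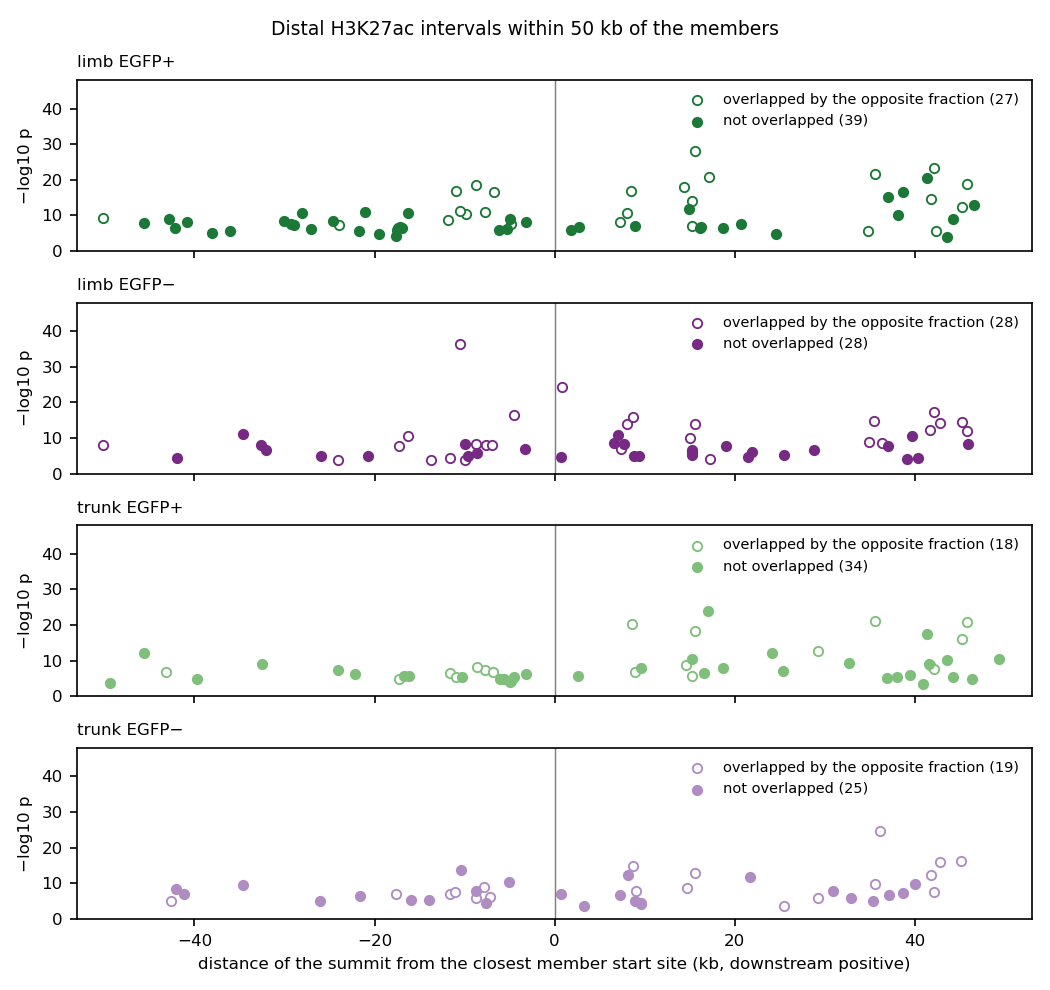
Distal intervals within 50 kb of the members, by distance of the summit from the closest member start site (x axis, kb, downstream positive) and −log10 p (y axis), in the 4 lists (rows). Filled points have no overlapping interval in the other fraction of the same tissue. The filled EGFP− points number 28 and 25, lie at all distances, and reach 11.1 (limb) and 13.7 (trunk) on the y axis, below the highest open points of 36.3 and 24.7.

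Counted by gene, EGFP−-only distal intervals were spread over many members. At least 1 lay within 50 kb of 21 members in the limb (52.5%), where 29.8% of all genes had one, and of 19 in the trunk (47.5%), where 28.2% had one. For EGFP+-only intervals it was 18 members (45.0%) for the limb, where 36.6% of all genes had one, and 15 (37.5%) for the trunk, where 35.8% had one. Members with both kinds, taken over the tissues, numbered 16 of 40, where 28% of all genes had both. Windows ran from every annotated start, and members had more starts per gene, with 237 for 40 members and 67388 for all 21581 genes. The shares per gene, here and below, do not allow for this difference. Most EGFP−-only intervals lay closer to another gene, and a member had the nearest start site for 11 of the 28 limb and 10 of the 25 trunk ones. Among EGFP+-only intervals it was 21 of 39 in the limb and 13 of 34 in the trunk. A window is not a target assignment, and these intervals cannot be tied to the member from the peaks alone.

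**Figure D4:**
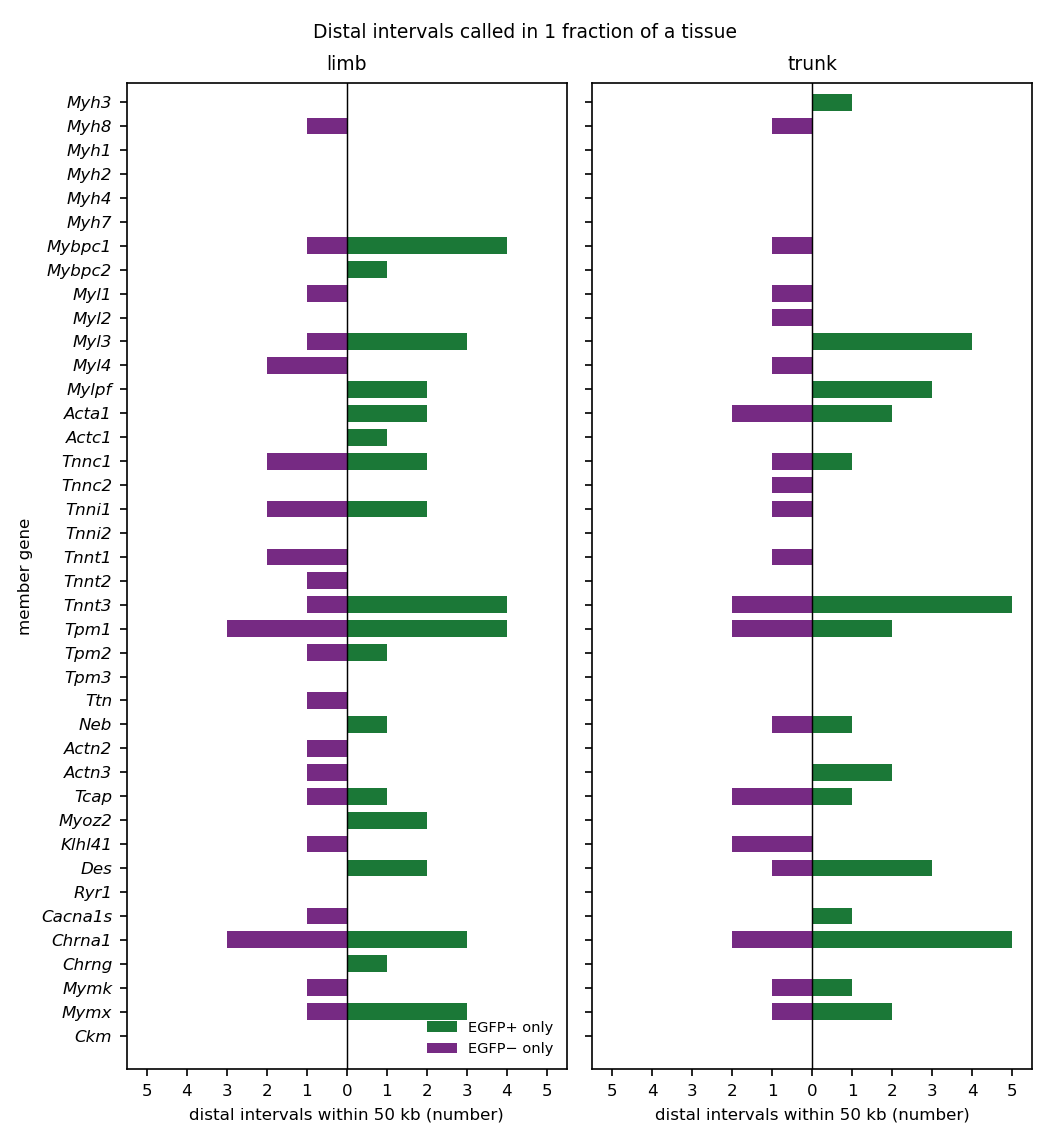
Number of distal intervals within 50 kb of each member that were called in 1 fraction of a tissue, with EGFP− drawn to the left (purple) and EGFP+ to the right (green), for the limb and the trunk. Klhl41, Myl1, Myh8 and Tnnt1 have bars to the left alone in both tissues, Mylpf has bars to the right alone, and Tnni2, Tpm3, Ryr1 and Ckm have none.

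Of the 24 members without a promoter peak, 15 (62.5%, 40.6 to 81.2%) had an EGFP−-only distal interval of either tissue within 50 kb, where 26.6% of all 8907 genes without a promoter peak had one. Within 10 kb it was 6 of the 24 (25.0%, namely Acta1, Tnni1, Tcap, Klhl41, Des and Mymx), where 7.08% of all such genes had one. Of the 15, Mybpc1, Acta1, Tnni1, Tcap, Des, Cacna1s, Mymk and Mymx also had EGFP+-only distal intervals within 50 kb, and the others had none. Near Des the EGFP−-only interval lay at chr1:75321104-75321364, with 20 reads in trunk EGFP− cells. It was 0.727 kb downstream of the most 5 prime start site, at chr1:75320511, but upstream of the canonical start at chr1:75336867. In Klhl41 the interval lay in an intron, with 11 reads in trunk EGFP− cells. Near Acta1 it lay 9.57 kb downstream of the closest start site, with 11 reads in trunk EGFP− cells. Another 4 unmarked members (Myh3, Mybpc2, Actc1 and Myoz2) had EGFP+-only but no EGFP−-only distal intervals, or 16.7% against 15% of all such genes, and 5 (Myh1, Myh2, Myh4, Myh7 and Ckm) had neither, or 20.8% against 58.4%.

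Merged across the lists, the distal intervals formed 116 regions, of which 36 (31.0%) held EGFP− peaks alone, the same share as the 31.0% of all 43876 distal regions. EGFP+ peaks alone marked 47 (40.5%, against 46.2% of all distal regions). Regions with peaks in both EGFP− lists and no EGFP+ list numbered 10 (8.62%), where 4.58% of all distal regions held this pattern. They lay near Myl1, Tnni1, Mybpc1, Myh8, Tcap, Myl4, Mymx, Klhl41, Chrna1 and Tnnt3, 1 each.

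The Klhl41 region at chr2:69465732-69465981 was intergenic and had 18 reads in limb and 17 in trunk EGFP− cells. Its nearest start site was that of Bbs5, 11.7 kb away. The Chrna1 region at chr2:73403460-73403984 lay within Chrna1 itself, with 22 reads in limb and 14 in trunk EGFP− cells. The Tnnt3 region at chr7:142076988-142077388 was intergenic, with 28 reads in limb and 44 in trunk EGFP− cells. These are the regions whose summit sequences are printed above. Near Mymx, which encodes the small fusion protein myomixer, a region 8.58 to 8.71 kb upstream had 12 reads in limb and 15 in trunk EGFP− cells, and Mymx had the nearest start site. Near Myh8, a region 37.0 kb downstream of its start had 12 and 15 reads, and the nearest start site was that of another myosin gene, Myh13.

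The strongest single EGFP−-only interval of the limb was that near Klhl41 (−log10 p 11.1), followed by intervals near Chrna1 (10.8 and 10.6), in an intron of Tpm1 (8.56) and 10.0 kb upstream of Ttn (8.47), where no other list held a peak. The Chrna1 interval of 10.6 lay 39.7 kb downstream of the Chrna1 start, with Wipf1 as the nearest start. A trunk EGFP+ peak with 12 reads overlapped it. In the trunk the strongest was at chr7:4529628-4530032, 10.4 kb upstream of Tnnt1 (−log10 p 13.7, 28 reads). It lay in an intron of Dnaaf3, 2.59 kb from the start of Tnni3, the cardiac troponin I. In the limb the same region had 54 reads in EGFP− and 19 reads in EGFP+ cells, and its limb EGFP− −log10 p of 36.3 was the highest of any distal interval of the 4 lists near the members. The next trunk intervals lay in an intron of Tnnt3 (12.5), at the Tnnt3 region above (11.7), 5.02 kb upstream of Chrna1 (10.5) and in an intron of Itgb3 near Myl4 (9.83). The region of the 12.5 interval also held limb peaks, with 44 reads in EGFP+ and 41 in EGFP− cells. Its nearest start was that of Prr33.

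Around Chrna1 both fractions held intervals of their own, so that the locus was not marked in 1 direction. Limb EGFP− cells had 3 and trunk EGFP− cells 2 such distal intervals, and limb EGFP+ cells had 3 and trunk EGFP+ cells 5. An upstream region at chr2:73415191-73416229 held peaks of all 4 lists, with 14 reads in limb EGFP+, 27 in limb EGFP−, 10 in trunk EGFP+ and 22 in trunk EGFP− cells, although the trunk intervals of the 2 fractions did not overlap. The intron region printed above was marked in the EGFP− lists alone, and regions from chr2:73426910-73427305 to chr2:73427414-73427739 in the EGFP+ lists alone.

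The strongest EGFP+-only intervals near the members lay mostly at other genes. In the limb they were in an exon of Zfp771, 41.3 kb from Mylpf (−log10 p 20.6), at 2 places in introns of Mrpl23 and an intergenic stretch 37.0 to 46.6 kb from Tnnt3 (16.6, 15.1 and 13.0), and in an exon of Car9 near Tpm2 (11.9). In the trunk they were 17.0 kb from Mymx with Hsp90ab1 as the nearest start (23.9), again in Zfp771 (17.4), in an intron of Arl5a near Neb (12.2), 24.1 kb from Tnnt3 (12.1), and, with equal values, in an intron of Ccs near Actn3 and 15.2 kb downstream of a Myl3 start (10.5). The last of these was the only one of the 11 for which a member had the nearest start. Taken over all EGFP+-only intervals, members had the nearest start more often, as given above.

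Motif letters in the promoter stretches were counted on both strands as a description. In the 200 bp upstream of the canonical start, the E-box CANNTG was found at 31 members (77.5%), against 56.1% of all genes and 65.2% of the CpG-poor genes. The variant CAGCTG, which is included in CANNTG, was found at 9 members (22.5%), namely Myl1, Mylpf, Acta1, Tnni1, Tnnt3, Tpm1, Klhl41, Chrng and Ckm, against 9.79% of all genes and 11.6% of the CpG-poor genes. Of the 9, Tpm1 and Chrng held a peak at the canonical start, and the other 7 did not. The MCAT element CATTCC was found at 5 members (12.5%, against 9.48% of all genes), and the MEF2 box at Klhl41 alone (2.5%, against 0.408% of all genes). Around the summits of EGFP−-only distal intervals near the members, CANNTG was found in 18 of 28 in the limb (64.3%, against 68.4% of all such intervals) and 13 of 25 in the trunk (52.0%, against 68.3%). For EGFP+-only intervals it was 29 of 39 in the limb (74.4%, against 64.7%) and 25 of 34 in the trunk (73.5%, against 65.5%).

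Further genes of the contractile apparatus, 62 in a list that does not include the members, were read in the same way and without regard to neighbouring promoters. Promoter peaks were held by 15, 17, 16 and 17 of the 62 in limb EGFP+, limb EGFP−, trunk EGFP+ and trunk EGFP− cells. In the same order the shares of all genes were 54.4, 51.6, 52.6 and 52.7%. At least 1 list marked 24 of the 62, where 58.7% of all genes were marked. EGFP− but not EGFP+ peaks marked 6 in the limb (9.68%, Csrp3, Ankrd2, Chrnb1 and Musk among them) and 5 in the trunk (8.06%, Csrp3, Chrnb1, Rapsn, Mb and Sgca), where 2.02% and 3.31% of all genes held this pattern. The opposite pattern marked 4 in the limb (Ldb3, Jph1, Jph2 and Unc45b) and 4 in the trunk (Xirp1, Ldb3, Jph1 and Cacna2d1), or 6.45% in each, where 4.83% and 3.22% of all genes held it. Jph1, which encodes a junctophilin that ties the sarcoplasmic reticulum to the outer membrane, had 25 reads in limb and 26 in trunk EGFP+ cells and no EGFP− peak. Chrnb1, which encodes another subunit of the acetylcholine receptor, had 23 reads in limb and 40 in trunk EGFP− cells, whereas the subunit genes Chrnd and Chrne were unmarked in all lists. Csrp3, a Z disc protein, had 16 and 15 reads. Musk and Rapsn, which gather the receptor at the nerve contact, had 13 and 16 reads in limb and trunk EGFP− cells for Musk, with 8 reads in trunk EGFP+ cells, and 16 reads in trunk EGFP− cells for Rapsn.

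Markers of the cell types that the fractions could hold gave a check of the sort. All 14 chondrocyte genes had promoter peaks in both EGFP+ lists and 4 of the 14 in each EGFP− list. As a background for the counts in this paragraph, the 4 lists marked 54.4, 51.6, 52.6 and 52.7% of all genes. Of 12 transcription factor genes of the muscle lineage, 6, 4, 4 and 5 were marked in the 4 lists, and the defining factors Myod1, Myf5, Myf6, Pax3 and Pax7 were unmarked in all. Myog, which drives differentiation, had 13 reads in limb EGFP+ cells, a list with a median of 26 per summit, and no peak elsewhere. By RNA-seq of the sorted cells, the authors reported high expression of Myog, Pax3, Myod1 and Myf6 in EGFP− cells. Smooth muscle, which can share contractile genes, had 3, 4, 2 and 4 of 9 promoters marked, with Acta2 (14 reads in limb and 23 in trunk EGFP− cells) and Synpo2 (14 and 20) in the EGFP− lists alone and Lmod1 (11 reads in limb and 10 in trunk EGFP+ cells) in the EGFP+ lists alone. Of 10 heart muscle genes, 2, 2, 1 and 1 were marked, and Nppa, Nppb and Myl7 were unmarked in all. Read at promoters, the EGFP− fractions thus held no peak at Acta1, Ckm, Myod1 and the fetal myosins Myh3 and Myh8, while Ryr1, Tnnt1, Csrp3 and Chrnb1 were marked in both EGFP− lists and no EGFP+ list, Chrng in limb EGFP− cells alone, and Neb, Actn2, Chrna1, Rapsn, Mb and Sgca in trunk EGFP− cells alone. The share of muscle cells in the fractions was not measured.

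**Figure D5:**
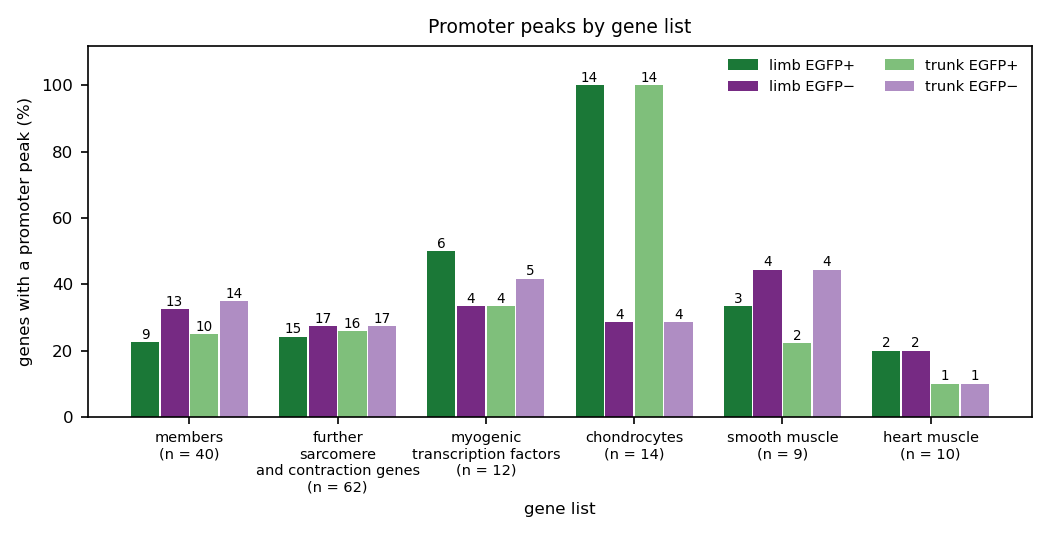
Share of genes with a promoter peak (y axis, percent, with the count above each bar) in the 4 lists for the members and 5 other gene lists (x axis). The chondrocyte bars reach 14 of 14 in both EGFP+ lists and 4 of 14 in both EGFP− lists, whereas the bars of the members run from 9 to 14 of 40. The share of all genes, not drawn, was 51.6 to 54.4% in the 4 lists.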

How the data were processed

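H3K27ac ChIP-seq peaks of 4 libraries were analysed, 1 per sorted population. The authors sampled equal read numbers, trimmed with cutadapt 1.18, mapped with Bowtie2 2.3.5.1 to GRCm39 and called peaks per library with MACS2 2.2.7.1 on reads extended to 200 bp. Read length and sonicator are not assigned to single libraries in the sources used here. The deposited score is MACS2's integer score, the deposited fold is the ratio of summit pileup to local background, and the deposited −log10 p and −log10 q are MACS2's own. The summit offset was deposited as another column.

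Summits with 1 start and end were joined into intervals. Start sites came from protein-coding transcripts of GENCODE vM39, and printed sequences from the GRCm39 genome. Intervals were called EGFP−-only or EGFP+-only without a 1 bp overlap with the other fraction of the tissue. Summit reads and background were recovered from fold and −log10 p, for 100% of intervals within 0.1%. Depth, as medians per list, was 24 to 26 reads per summit, and 30716 to 40899 intervals were kept per list. No test was made with 1 library per group, and Clopper-Pearson intervals cover counting error only. Calls were tested on simulated data.

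The members and lists were chosen with earlier results of these data known. All members were named, with the 5 distal regions of highest −log10 p per list, ties included, and sequences by summed −log10 p. Alternatives changed the peak threshold, list length, promoter and distal windows, start sites, overlap and measure of height. Tools were scipy 1.17.1, pandas 2.3.3, numpy 2.4.6 and matplotlib 3.10.9 under Python 3.11.15. Some genes of the comparison lists are counted but not reported here by name.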

Additional observations from a re-analysis of the deposited data

How the results depend on the processing

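No paired analysis was possible because each population had 1 library and no test was made. Counts of members with a promoter peak in 1 fraction rested on weak peaks and are given as limb EGFP−-only, trunk EGFP−-only, both tissues and limb EGFP+-only. They were 0, 0, 0 and 1 with a −log10 q of at least 5, 0, 0, 0 and 1 with the 20000 strongest intervals per list, 1, 2, 0 and 2 with a fold of at least 4, and 2, 2, 1 and 1 with the most 5 prime start site, where trunk EGFP+-only fell to 0. Of the settings chosen after the data were seen, the canonical start gave limb and trunk EGFP+-only counts of 1 and 0, and intervals that reach no other promoter window gave 1 and 2.

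EGFP−-only distal intervals in limb and trunk and EGFP+-only intervals in limb and trunk numbered 13, 11, 25 and 15 with a −log10 q of at least 5, 12, 9, 24 and 10 with a fold of at least 4, 11, 14, 12 and 11 with the 20000 strongest intervals, 13, 13, 16 and 15 within 20 kb, and 47, 45, 72 and 62 within 100 kb. With a member as the nearest start, chosen after the data were seen, they were 11, 10, 21 and 13. By fold over background, 4 of 11 members were higher in trunk EGFP− cells. The other 50 of 96 values stayed within 1.5 times the main count or within the counting interval of the share. At this depth EGFP−-only promoter summits rested on 11 to 28 reads, and without replicate libraries the spread between fetuses is unknown. The cause of the changes was not tested.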
